A study of Caenorhabditis elegans with 2 samples.

Results

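Of 346 genes annotated as snoRNA genes in *Caenorhabditis elegans* (assembly WBcel235, called ce11 in the peak files), 182 lay wholly within the span of a protein-coding gene read from the same strand, and these hosted snoRNA genes are described here. Genes with names starting with smy-, of which the biotype held 2, were left out, and the other 162 snoRNA genes, which have no such host, served as the nearest comparison. The 182 members sat in 155 host genes, out of 46926 annotated genes in all. 144 lay in an intron of the host and 38 overlapped a host exon in at least 1 annotated transcript. For each member the nearest summit of SNPC-4 enrichment within 300 bp of its 5′ end was taken from the authors' list of peaks past the irreproducible discovery rate (IDR) threshold, and otherwise from the longer list of pooled candidate regions. The rule that picks the members uses annotation only.

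The data are chromatin immunoprecipitation sequencing (ChIP-seq) peak lists for SNPC-4 in whole worms. All libraries came from strain YL487, a transgenic line in which SNPC-4 carries GFP and FLAG at its C terminus. The description names an anti-GFP antibody, whereas the antibody entry reads snpc-4. Hermaphrodite young adults were taken 60 h after synchronization of starved L1 larvae, and the 2 biological replicates form the only group, so every comparison below is between genes and none is between conditions. Whole animals mix all tissues, and the labels used here do not give the promoter of the transgene. The pooled list held 30000 candidates. Its 4675 regions of highest signal, those of 87.3 or more, made up the IDR list. Signal is the authors' value of peak strength, of unstated scale, and ranks count from 1 at the highest pooled signal. Read depth is unknown.

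snoRNAs are small nucleolar RNAs that guide chemical modification of ribosomal and other RNAs: box C/D snoRNAs guide methylation of the ribose, and box H/ACA snoRNAs guide the conversion of uridine to pseudouridine. In vertebrates most snoRNAs have no promoter of their own and are cut from the spliced introns of their host transcripts. SNPC-4 is a worm subunit of SNAPc, which recognises the proximal sequence element (PSE) in front of small nuclear RNA genes. Another kind of small RNA promoter, best known from tRNA genes, consists of an A box and a B box inside the transcribed gene, which TFIIIC binds, and RNA polymerase III stops at runs of T.

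The 100 bases before each member and its first 20 bases are shown for the members on which the results turn, 5′ to 3′ on the strand of the snoRNA. The sequences were read from the RefSeq sequence of ce11. The first set holds members whose upstream window has the letters AACNCG, then 5 free bases, then TGTCNG (N stands for any base), called PSE-type here, and those 12 letters are in capitals. They are ordered by signal of the IDR peak and include the highest in the genome.
ZK994.7, chrV:8500479-8500598, plus strand: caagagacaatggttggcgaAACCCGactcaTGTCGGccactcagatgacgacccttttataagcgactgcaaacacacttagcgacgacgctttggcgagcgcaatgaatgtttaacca
F01D5.12, chrII:14018422-14018541, minus strand: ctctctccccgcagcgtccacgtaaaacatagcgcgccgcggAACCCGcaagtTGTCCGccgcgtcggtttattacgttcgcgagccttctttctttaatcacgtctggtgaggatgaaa
C16D9.11, chrV:8228950-8229069, minus strand: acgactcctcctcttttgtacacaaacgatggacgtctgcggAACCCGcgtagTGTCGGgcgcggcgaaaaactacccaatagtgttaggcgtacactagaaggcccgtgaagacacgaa
C08D8.3, chrV:8349008-8349127, plus strand: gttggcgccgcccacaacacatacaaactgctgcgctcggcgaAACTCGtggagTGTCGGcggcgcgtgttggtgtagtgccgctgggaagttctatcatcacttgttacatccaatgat
W04D2.7, chrV:12491180-12491299, plus strand: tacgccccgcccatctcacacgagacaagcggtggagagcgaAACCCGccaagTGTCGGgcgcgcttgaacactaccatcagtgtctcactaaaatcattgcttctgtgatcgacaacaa
T06D8.11, chrII:11224082-11224201, plus strand: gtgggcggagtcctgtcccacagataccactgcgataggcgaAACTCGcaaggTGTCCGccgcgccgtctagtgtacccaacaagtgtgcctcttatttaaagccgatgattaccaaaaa
F54F11.6, chrII:13521201-13521320, plus strand: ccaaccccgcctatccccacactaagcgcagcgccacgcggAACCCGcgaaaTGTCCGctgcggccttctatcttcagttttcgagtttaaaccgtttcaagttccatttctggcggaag
T19C4.11, chrV:11175687-11175806, minus strand: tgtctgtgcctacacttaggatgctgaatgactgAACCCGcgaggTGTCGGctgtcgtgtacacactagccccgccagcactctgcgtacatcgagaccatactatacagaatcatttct
Y73B6A.14, chrIV:6664536-6664655, minus strand: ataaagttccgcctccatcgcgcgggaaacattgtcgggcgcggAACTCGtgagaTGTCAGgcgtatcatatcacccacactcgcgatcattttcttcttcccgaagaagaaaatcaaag
C02C6.13, chrX:15552468-15552587, minus strand: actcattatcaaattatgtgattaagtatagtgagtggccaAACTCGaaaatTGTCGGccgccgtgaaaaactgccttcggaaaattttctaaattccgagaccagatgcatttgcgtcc

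The second set holds the 5 members with the highest signal, among those read here, in which an A box is followed by a B box. These are called A/B box-type, and both boxes are in capitals. The B box searched was GGTTCGA, 2 free bases and CC, with at most 2 letters differing, starting 20 to 70 bases after the end of the A box.
Y43F8C.22, chrV:19643168-19643287, minus strand: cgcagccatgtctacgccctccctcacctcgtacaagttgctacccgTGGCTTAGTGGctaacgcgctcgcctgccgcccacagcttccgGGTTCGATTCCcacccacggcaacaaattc
W08G11.6, chrV:16370119-16370238, plus strand: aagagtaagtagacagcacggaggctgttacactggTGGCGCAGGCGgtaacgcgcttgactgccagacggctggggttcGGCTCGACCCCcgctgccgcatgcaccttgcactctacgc
C51F7.3, chrV:12303608-12303727, plus strand: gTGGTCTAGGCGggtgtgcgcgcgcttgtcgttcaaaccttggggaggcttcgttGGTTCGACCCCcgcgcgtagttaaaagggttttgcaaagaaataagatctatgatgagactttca
F11A10.9, chrIV:12086609-12086728, plus strand: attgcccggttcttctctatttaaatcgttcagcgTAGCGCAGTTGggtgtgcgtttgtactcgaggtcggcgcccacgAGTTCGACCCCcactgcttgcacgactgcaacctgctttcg
F55A11.10, chrV:11782892-11783011, plus strand: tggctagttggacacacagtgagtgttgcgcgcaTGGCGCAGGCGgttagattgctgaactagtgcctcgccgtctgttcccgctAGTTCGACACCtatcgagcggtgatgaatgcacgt

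The third set holds long members without any candidate summit, shown for contrast. Neither kind of match was found in these windows, so no letter is in capitals.
C30C11.15, chrIII:8467609-8467728, plus strand: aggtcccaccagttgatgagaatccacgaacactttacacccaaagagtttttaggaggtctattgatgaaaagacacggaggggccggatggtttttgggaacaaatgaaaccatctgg
T15H9.8, chrII:9622676-9622795, minus strand: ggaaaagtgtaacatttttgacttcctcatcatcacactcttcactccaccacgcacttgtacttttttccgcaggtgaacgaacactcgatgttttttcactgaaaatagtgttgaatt

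Of the 182 hosted snoRNA genes, 39 had an IDR summit within 300 bp of the 5′ end (21.4%, exact 95% interval 15.7 to 28.1). The same held for 11.6% of all annotated genes (5424 of 46926) and for 6.36% of protein-coding genes (1272 of 19985). Most of the 5424 were thus genes of other kinds, snoRNA genes among them, so all annotated genes are not a set free of SNPC-4 targets. A further 39 members had a candidate summit only, and 104 (57.1%) had none. Together 78 members had a pooled candidate, IDR or not (42.9%, 35.6 to 50.4), close to the 38.7% of all annotated genes. Of snoRNA genes without a same-strand host, 70 of 162 had an IDR summit (43.2%, 35.5 to 51.2). That interval and the interval of the hosted genes do not overlap. The share without a same-strand host was close to this value both in the 33 genes that lie within a coding gene on the opposite strand (14 genes, 42.4%, 25.5 to 60.8) and in the 123 that lie outside coding genes (54 genes, 43.9%, 35 to 53.1). Intervals here cover counting error only, and the genes are not independent where they share a host or a peak.

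Position in the host was set beside these shares. Of members in an intron 35 of 144 had an IDR summit (24.3%, 17.6 to 32.1), and of those overlapping an exon 4 of 38 had one (10.5%, 2.94 to 24.8). Members over 600 bp from every annotated transcript start of the host had one in 31 of 126 cases (24.6%, 17.4 to 33.1), and members closer to a start in 8 of 56 (14.3%, 6.38 to 26.2). Both pairs of intervals overlap. By chromosome the share ran from 10% on chromosome X (1 of 10, 0.253 to 44.5) and 10.5% on chromosome III (4 of 38, 2.94 to 24.8) to 38.9% on chromosome V (14 of 36, 23.1 to 56.5), with overlapping intervals. The 39 genes used 38 separate IDR peaks, since C51F7.3 and C51F7.4, neighbours in frm-7 (a FERM domain protein gene), shared 1.

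**Figure D1:**
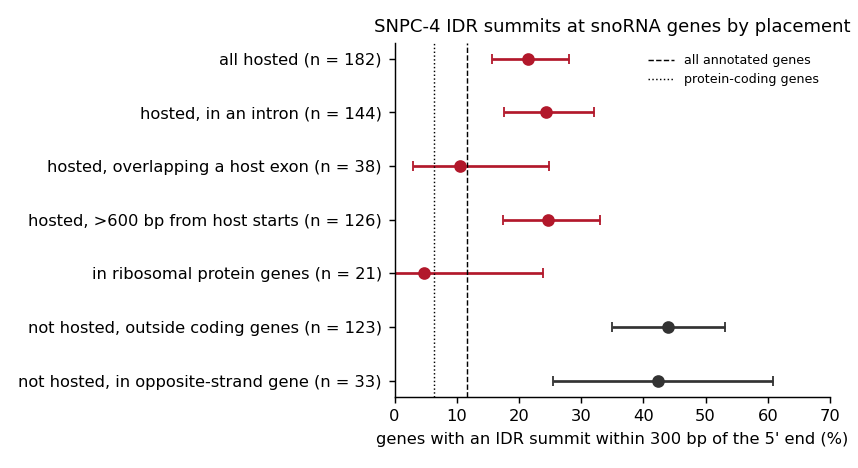
Share of snoRNA genes with an IDR summit within 300 bp of the 5′ end (x axis, percent) by placement of the gene (y axis); points are shares, bars exact 95% intervals, red hosted and grey not hosted, and the broken and dotted lines are all annotated genes and protein-coding genes. The hosted share of 21.4% lies between the 11.6% of all genes and the shares above 42% of snoRNA genes without a same-strand host.

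Members were grouped by letters at their ends, as a description and not as an annotation: box C/D-type where a C box and a D box were found, box H/ACA-type where ACA stood near the 3′ end. An IDR summit was found at 5 of 15 box C/D-type members (33.3%, 11.8 to 61.6), at 15 of 60 box H/ACA-type members (25%, 14.7 to 37.9) and at 19 of 107 unclassified ones (17.8%, 11 to 26.3). These intervals overlap.

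The summits lay close to the snoRNA gene. For 37 of the 39 members with an IDR summit (94.9%, 82.7 to 99.4) the summit was nearer to the 5′ end of the snoRNA than to that of the host, and this held for 39 of the 39 with a candidate summit only. The window of 300 bp fixes this outcome for every member, IDR or candidate-only, that lies over 600 bp from the host 5′ end. Among the IDR members only F54E7.10, F39B2.14 and F25H2.14 lay closer, at 80, 61 and 75 bp. The summit was nearer to the host in F54E7.10 and F39B2.14 and nearer to the snoRNA in F25H2.14. Against every host transcript start, the window fixes the outcome for 31 IDR members, those over 600 bp from each start. Among the other 8, where it was free, the summit was nearer to the snoRNA than to any host transcript start in 6 (75%, 34.9 to 96.8), and among the 13 candidate-only members placed likewise in 11 (84.6%, 54.6 to 98.1). The median distance from IDR summit to snoRNA was 45 bp (quartiles 32 and 54.5), against 2838 bp to the 5′ end of the host and 1353 bp to its nearest annotated transcript start. In 28 of 39 the nearest host transcript start was over 1000 bp from the summit. The farthest was M106.6 in mix-1, which encodes a condensin subunit: its summit was 48 bp upstream of the snoRNA and 16023 bp from the host's 5′ end. 25 summits lay within 50 bp of the snoRNA 5′ end, 10 lay 51 to 100 bp away and 4 lay farther.

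Both exceptions among the IDR summits were in short hosts. F54E7.10 lies in the first intron of rps-12, a gene for a small-subunit ribosomal protein, and its 5′ end is 80 bp from the host's. The summit, of signal 558 and rank 620, was 241 bp upstream of the snoRNA and 161 bp from the start of rps-12, and the 5′ end of ska-3 was closer still at 132 bp. F39B2.14 in tmem-107 had a summit 76 bp upstream and 15 bp from the host's start, with signal 200 and rank 1935. An annotated 5′ end of a gene other than the host was nearer to the summit than the member's own in 6 of 39 cases. In 1 of these it was a small RNA gene: C51F7.3, whose summit was nearer to C51F7.4. Genes annotated as ncRNA or pseudogene were not counted as small RNA genes there. The summit of T08B2.13 in fars-1, for example, lay 29 bp from a pseudogene's 5′ end and 39 bp from the snoRNA's. At the edge of the window, W06A7.12 in ret-1 had an IDR summit 256 bp away, the farthest among the 39, and Y24D9A.9 in rpl-7A had its nearest at 347 bp, just outside.

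**Figure D2:**
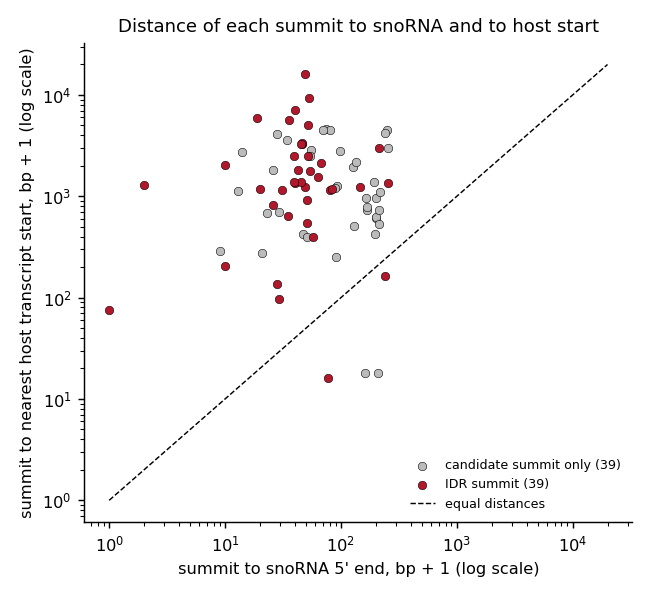
Distance from the summit to the snoRNA 5′ end (x axis, bp + 1, log scale) and to the nearest annotated transcript start of the host (y axis, bp + 1, log scale) for the 39 members with an IDR summit (red) and the 39 with a candidate summit only (grey). Points above the broken line are nearer to the snoRNA; 37 red points lie there, and the median red distances are 45 bp and 1353 bp.

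The IDR summits also shared a side. They lay upstream of the 5′ end in 34 of 39 members (87.2%, 72.6 to 95.7), with a median offset of -44 bp (quartiles -51.5 and -26, range -256 to 213). In 31 of 39 (79.5%, 63.5 to 90.7) the summit was 1 to 100 bp upstream. snoRNA genes without a same-strand host had a median offset of -41 bp, upstream in 63 of 70 (90%, 80.5 to 95.9). Candidate-only summits at hosted genes had no such place: their median offset was 50 bp (quartiles -39.5 and 166), and 16 of 39 were upstream (41%, 25.6 to 57.9), an interval below that of the IDR summits.

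Signals of the 39 ranged from 89.2 to 34251 with a median of 379 (quartiles 197 and 1135). All 4675 IDR peaks had a median of 165, and the peaks at snoRNA genes without a same-strand host had a median of 436. The largest IDR peak in the genome lay at a hosted snoRNA gene. It was at ZK994.7, in intron 17 of the peroxidasin gene pxn-1, with signal 34251 and rank 1 in the pooled list and in the list of each replicate. Its summit was 35 bp upstream of the snoRNA and 5655 bp from the host's 5′ end. At the other end, F58D5.12 held the lowest IDR peak of a member, with signal 89.2 and rank 4572, while the highest candidate below the threshold at a member was 84.7, at F29G9.19.

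The members with an IDR summit differed in the letters in front of them. These letter patterns were taken up after the upstream sequences of these members had been read, so their counts at members describe them and are not independent evidence. Of the 39 members with an IDR summit, 11 were PSE-type (28.2%, 15 to 44.9) and 13 were A/B box-type (33.3%, 19.1 to 50.2). No member was both. Of the 143 members without an IDR summit, 0 were PSE-type, which allows a share of up to 2.55%, and 5 were A/B box-type (3.5%, 1.14 to 7.97). Windows of the same length along the 6 nuclear chromosomes held PSE-type letters in 0.0564% and A/B boxes in 0.134%. Upstream windows of protein-coding genes held them in 0.03% and 0.0501%, and host introns away from snoRNA genes in 0.0916% and 0.22%. Read from the letters, 11 of 11 PSE-type members, 13 of 18 A/B box-type members (72.2%, 46.5 to 90.3) and 15 of 153 others (9.8%, 5.59 to 15.7) had an IDR summit.

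The PSE-type members carried the highest peaks. Their signals ran from 653 to 34251 with a median of 16721, against 100 to 713 with a median of 298 for the 13 A/B box-type members and 89.2 to 641 with a median of 204 for the 15 with neither. All but 1 of the 11 PSE-type signals lay above every signal of both other classes. 10 members had a peak among the 300 highest in the genome, and all 10 were PSE-type. Of the 29 snoRNA genes without a same-strand host that had such a peak, 20 were PSE-type (69%, 49.2 to 84.7) and 9 had neither pattern (31%, 15.3 to 50.8). The remaining PSE-type member, C02C6.13, had rank 523.

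**Figure D3:**
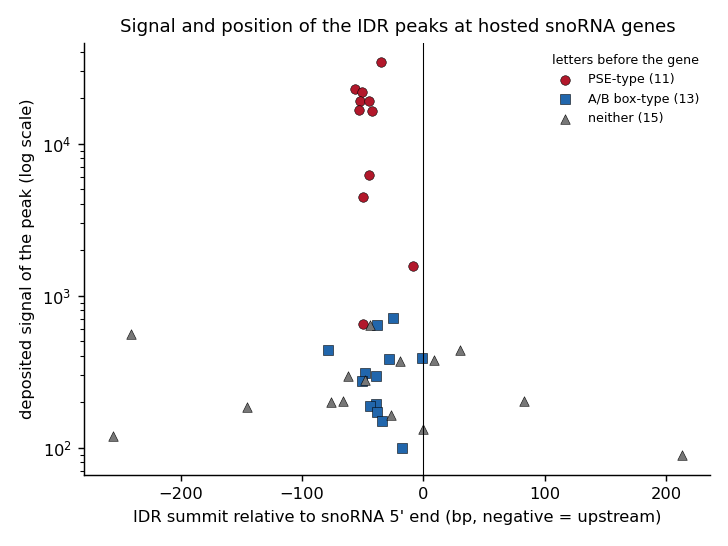
Signal of the IDR peak (y axis, log scale, authors' value) against the position of its summit relative to the snoRNA 5′ end (x axis, bp) for the 39 members, by letters before the gene (11 PSE-type, 13 A/B box-type, 15 neither). PSE-type points lie from 653 to 34251 within 56 bp upstream, and both other classes lie at or below 713.

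The PSE-type members lay in hosts of many kinds. After ZK994.7, Y37E3.20 in pcyt-2.1 (a phospholipid synthesis gene) had signal 22988 and rank 5, with the summit 56 bp upstream. This site is 393 bp from a host transcript start, and the 5′ end of the ncRNA gene Y37E3.29 lay 46 bp from the summit. F01D5.12 in F01D5.10, a carbohydrate sulfotransferase gene, had signal 21847 and rank 9, with the summit 51 bp upstream. The summit of C16D9.11 lay in intron 27 of rol-3, 52 bp before the snoRNA and 9388 bp from the host's start, and its signal was 18975 (rank 13). Annotated ncRNA genes also begin near several of these sites: an end nearer to the summit than the snoRNA's was present at Y37E3.20 and, 17 bp from the summit, at T06D8.11 (T06D8.17).

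C08D8.3 in C08D8.1, a gene for an UNC93-like protein, followed closely with signal 18935 and rank 14, and its summit was 45 bp upstream. W04D2.7 in the innexin gene inx-11, whose family forms invertebrate gap junctions, had signal 16721 and rank 19. T06D8.11 in plpr-1 had signal 16471 and rank 20. The summits of these last genes lay 53 and 42 bp upstream. Thus 7 members had ranks of 20 or better.

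The remaining PSE-type members stepped down. F54F11.6 in sre-45, a serpentine receptor gene, had signal 6215 and rank 49. T19C4.11 in gpa-1, which encodes a G protein alpha subunit, had signal 4445 and rank 75. Y73B6A.14, in a protein kinase domain gene, had signal 1557 and rank 221, with its summit only 9 bp upstream. C02C6.13 in lron-3, on chromosome X, had signal 653 and rank 523, with the summit 50 bp upstream.

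The position of the letters was nearly fixed. TGTCNG began 45 to 48 bp upstream of the snoRNA in 9 of 11 PSE-type members and 55 and 69 bp upstream in T19C4.11 and ZK994.7. The distance from the start of TGTCNG to the summit had a median of 1 bp (quartiles -4.5 and 5, range -9 to 36). The summit lay well past the letters at ZK994.7 (summit at -35 bp, TGTCNG at -69 bp) and Y73B6A.14 (-9 and -45 bp). At the other PSE-type members it lay on or beside them. TGTCNG read TGTCGG in 7 members, TGTCCG in 3 and TGTCAG in 1. Among snoRNA genes without a same-strand host the same letters were found at 20 of 70 with an IDR summit (28.6%, 18.4 to 40.6) and at 1 of 92 without, and TGTCNG began at a median of -49 bp there against -47 bp at hosted ones.

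TGTCGG alone, the letters named in earlier results of these data, stood within 100 bp upstream on either strand at 9 of 39 members with an IDR summit (23.1%, 11.1 to 39.3) and at 1 of 143 without (0.699%, 0.0177 to 3.83). It was present in 2.76% of windows, 1.68% of protein-coding upstream windows and 2.99% of host intron windows. The 1 member without a summit was C52G5.13 in gei-3, where the letters stood on the opposite strand.

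**Figure D4:**
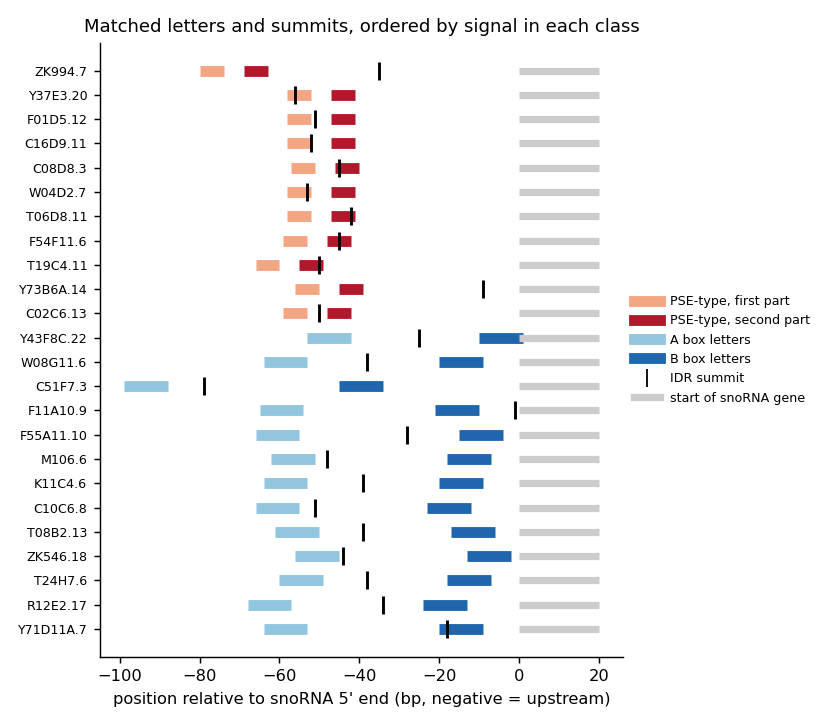
Positions of the matched letters (coloured bars) and of the IDR summit (black ticks) relative to the snoRNA 5′ end (x axis, bp) in the 11 PSE-type and 13 A/B box-type members, each ordered by signal from the top. TGTCNG starts at -48 to -45 bp in 9 of 11 PSE-type members; the A box starts at -99 to -53 bp and the B box at -45 to -10 bp in the A/B box-type members.

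In the 13 A/B box-type members with an IDR summit both boxes lay in front of the annotated snoRNA, except for the last base of the B box of Y43F8C.22. The search covered the 100 bases before each member and its first 20 bases. It could not find a pair of boxes inside the gene, so this placement is partly set by the search. The A box began at a median of -64 bp (range -99 to -53) and the B box at a median of -20 bp (range -45 to -10), and their starts were 42 to 54 bp apart. The same search, placed from 20 bases before the gene to 100 bases into it, found the boxes in 552 of 612 nuclear tRNA genes (90.2%, 87.6 to 92.4). Summits had a median offset of -38 bp and lay between both boxes in 11 of 13. In Y71D11A.7 the summit was within the B box, and in F11A10.9 it was past it. These are pooled summits. The summits of the strongest replicate regions at the 13 members differed by a median of 22 bp (quartiles 10 and 30), which limits how closely a summit can be placed. TTTT stood in the 20 bases after the gene in 13 of 13 of these members. It followed 7 of 11 PSE-type members and 10 of 15 with neither, 48 of 143 members without an IDR summit (33.6%, 25.9 to 41.9), and 33.8% of windows of 20 bases in host introns.

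The highest A/B box-type peak was at Y43F8C.22 in Y43F8C.7, a gene for a subunit of the endoplasmic reticulum membrane complex, with signal 713 and rank 472. Its B box matched with no letter differing and ended at the first base of the snoRNA. W08G11.6 in W08G11.3 had signal 636 and rank 530. C51F7.3 in frm-7 had signal 439 and rank 806, and its boxes, the farthest upstream, lay within the neighbouring snoRNA gene C51F7.4. F11A10.9 in rbm-34 had signal 391 (rank 945) and F55A11.10 in F55A11.6 had signal 380 (rank 980). The lowest was Y71D11A.7 in acsd-1 with signal 100 and rank 3991.

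Most other A/B box-type peaks were lower. K11C4.6 in unc-70, the beta spectrin gene, had signal 298. The signal of C10C6.8 in catp-8, a P-type ATPase gene, was 275. T08B2.13 in fars-1, which encodes a phenylalanine tRNA ligase, had signal 193, and R12E2.17 in the proteasome gene rpn-8 had 149. By letters at the ends, 7 of the 13 were box H/ACA-type (53.8%, 25.1 to 80.8), against 1 of 11 PSE-type members (9.09%, 0.23 to 41.3). These intervals overlap, and 60 of all 182 members were box H/ACA-type. Of 70 non-hosted genes with an IDR summit, 12 were A/B box-type (17.1%, 9.18 to 28), an interval that overlaps the 19.1 to 50.2 of the hosted ones. Their signals of 248 to 633 lay within the range at hosted members.

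5 A/B box-type members had no IDR summit. R166.7 in mnk-1, a kinase gene, had a candidate of signal 80.3 and rank 5124, 33 bp upstream, just below the threshold. F22D6.16 in prpf-4 had a candidate of rank 12885. T23B12.13 in mrps-2 and D1054.17 in D1054.3 had no pooled candidate. F19H8.6 in mltn-9 had none in the pooled list or in replicate 2, but had a region of rank 1416 in replicate 1 with the summit 27 bp upstream.

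The 15 members with neither pattern had summits spread from -256 to 213 bp, and their signals, with quartiles of 176 and 376, overlapped those of the A/B box-type members, with quartiles of 187 and 391. The highest was at F38E11.14 in cng-3, a cyclic nucleotide gated channel gene, with signal 641, rank 527 and the summit 44 bp upstream. D1046.6 in cfim-2 had its summit 9 bp inside the gene with signal 379, and F26D10.24 in the heat shock protein gene hsp-1 had it 83 bp inside with signal 203. Y38F2AR.14 had TGTCGG 69 bp upstream without the first part of the PSE-type letters, and signal 374. C51F7.4 is counted among the 15, although it shares its peak with the A/B box-type C51F7.3. The boxes of C51F7.3 lie within C51F7.4 but reach past the first 20 bases of it that were searched. Absence of a match says only that these letters were not found in the window.

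The 23 hosts with more than 1 member held 50 members, of which 4 had an IDR summit (8%, 2.22 to 19.2): C51F7.3 and C51F7.4 in frm-7, F58D5.12 in F58D5.5 and F54E7.10 in rps-12. In hosts with a single member it was 35 of 132 (26.5%, 19.2 to 34.9), and the intervals touch at their ends. nol-56, which encodes a core protein of the box C/D particle, held 4: K07C5.18 and K07C5.12 had candidates only, of ranks 15852 and 26029, and K07C5.10 and K07C5.11 had none. rpl-6, a large-subunit ribosomal protein gene, held 3, of which R151.12 and R151.13 shared 1 candidate of rank 17937 and R151.11 had none. In top-2, the DNA topoisomerase gene, K12D12.6, K12D12.7 and K12D12.8 lay in 1 intron of 345 bp with no candidate. The 10 members of these last 3 hosts had no IDR summit, which allows a share of up to 30.8% and so does not set them apart from the 21.4% of all members.

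Genes whose annotated product is a protein of the cytosolic ribosomal subunits held 21 members, and 1 had an IDR summit (4.76%, 0.12 to 23.8): F54E7.10 in rps-12, whose summit was nearer to the host. 7 had a candidate only and 13 had none. 18 of these 21 lay within 600 bp of a host transcript start, and 18 were box H/ACA-type. Genes named as translation factors held 5 members, of which 0 had any pooled candidate. This allows a share of up to 52.2% and so does not set them apart from the 42.9% of all members. In all hosts outside the ribosomal protein genes 38 of 161 members had an IDR summit (23.6%, 17.3 to 30.9), an interval that overlaps that of the ribosomal protein genes.

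Within the host genes, summits gathered at the members. The 155 hosts, 1402 kb in all, held 102 IDR summits, of which 37 (36.3%) lay within 300 bp of a member's 5′ end, although that surrounding made up 7.21% of host length. That is 36.6 IDR summits per 100 kb beside members, against 6.77 per 100 kb in host introns over 600 bp from snoRNA 5′ ends and host starts. Of positions taken every 100 bp along those introns, 3.4% had an IDR summit within 300 bp. At the hosts' own 5′ ends, 30 of 155 (19.4%) had an IDR summit within 300 bp, against 6.36% of protein-coding genes. Of the 30 hosts whose member had an IDR summit and lay over 600 bp from every host start, 5 did.

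The letters were also followed away from snoRNA genes. PSE-type letters occurred 1347 times on the 6 nuclear chromosomes, and an IDR summit lay within 100 bp of 537 (39.9%, 37.2 to 42.5). More than 300 bp from snoRNA 5′ ends it was 499 of 1308 (38.1%). In host introns away from members there were 17 matches, 12 with an IDR summit, at 8 peaks of rank 94 to 1939; matches that share a peak are not independent. A/B boxes occurred 4463 times, and 462 (10.4%, 9.47 to 11.3) had an IDR summit within 100 bp. More than 300 bp from snoRNA 5′ ends it was 432 of 4412 (9.79%, 8.93 to 10.7). In host introns away from members it was 6 of 34 (17.6%, 6.76 to 34.5). Matches at tRNA genes and at other small RNA genes, small nuclear RNA genes included, were not left out. The shares are therefore not those of matches away from all small RNA genes. None of these shares is set beside one for all positions at 100 bp.

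Both replicates had a region within 300 bp at 37 of the 39 members with an IDR summit (94.9%, 82.7 to 99.4). The summits of the strongest such regions differed between replicates by a median of 12 bp. W06A7.12 and F58D5.12 had no region in replicate 1, and their ranks in replicate 2 were 3473 and 5235. In 36 of 39 both ranks were within the 4675 highest of each list, and Y71D11A.7, with ranks 3795 and 5849, was the other one outside. At the PSE-type members the ranks were nearly the same, for example 13 and 13 at C16D9.11, 49 and 54 at F54F11.6 and 226 and 218 at Y73B6A.14, and summits differed by a median of 2 bp. The replicates were both from the strain described above, and their ranks measure repeatability of the lists and not variation between strains.

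**Figure D5:**
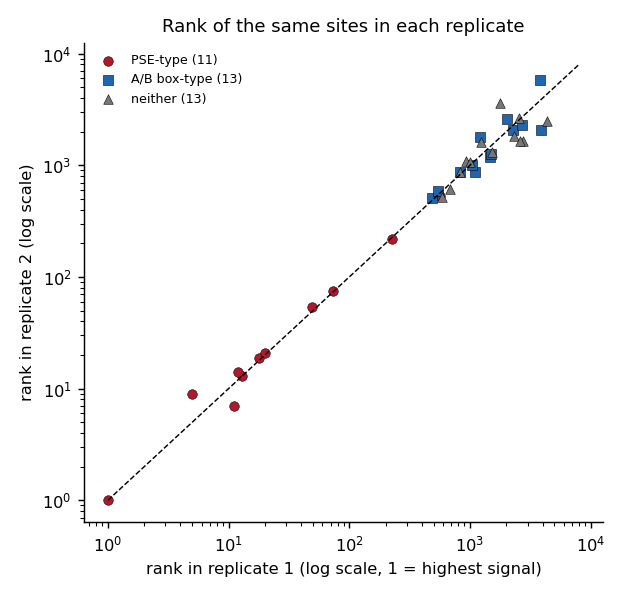
Rank of the strongest region within 300 bp of the snoRNA 5′ end in replicate 1 (x axis) and replicate 2 (y axis), both log scales with 1 the highest signal, for the 37 members with an IDR summit and a region in both replicates; the broken line marks equal ranks. The 11 PSE-type members lie at ranks 1 to 565 and follow the line, and the A/B box-type members lie at 486 and beyond.

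The IDR list holds the pooled candidates of highest signal, and the pooled list draws on both replicates. The repeat at its members is therefore a description. At the candidate-only members, both replicates had a region at 20 of 39 (51.3%, 34.8 to 67.6), and those summits differed by a median of 71.5 bp. The highest was F29G9.19 in fos-1, a transcription factor gene, with signal 84.7 and rank 4844, 73 bp inside the snoRNA. R166.7 followed, as given above, and then the member in jac-1 with signal 64.6 and rank 6415, where the summit was 247 bp away and the piRNA gene 21ur-915 was nearer at 58 bp. Of the 104 members without a pooled candidate, 86 had no region in either replicate list, and 0 had one in both. The longest were K10D3.10 (325 bp, in K10D3.4), C30C11.15 (290 bp, in mig-39) and T15H9.8 (281 bp, in dnj-20), and none of these had a region in a replicate.

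The protein genes of the snoRNA particles were examined as the rest of the pathway. 3 of 8 had an IDR summit within 300 bp of the 5′ end, set beside 6.36% of protein-coding genes. For the box C/D particle, fib-1, the gene of the methyltransferase fibrillarin, had a summit at -97 bp with signal 388 and rank 956. nol-56, itself a host, had one at -261 bp from its own 5′ end with signal 166 and rank 2326, while none of its members had an IDR summit. nol-58 and M28.5 (snu-13) had none. For the box H/ACA particle, K01G5.5 (dkc-1), the gene of the pseudouridine synthase dyskerin, had a summit at -258 bp with signal 171 and rank 2247. Y66H1A.4 (garr-1) and nola-3 had candidates only, of ranks 29864 and 9153, and Y48A6B.3 had none.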

How the data were processed

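SNPC-4 ChIP-seq was analysed from 2 replicates of 1 group, grouped by the labels. The authors deposited peak lists in narrowPeak layout and ce11 coordinates, for each replicate and for both pooled. The signal is the authors' value per region, and its scale, the aligner and the peak caller are not stated there. The other deposited column used, the summit offset from the region start, was converted to coordinates counted from 1. Signal was compared only within 1 list. The regions reach the ends of chromosomes V and X in the RefSeq sequence, at 20924180 and 17718942 bp. Genes came from Ensembl release 115 of WBcel235. For the 3 members within more than 1 same-strand coding gene, the shortest was taken as host. Shares have exact (Clopper-Pearson) 95% intervals and no test was made, since there is 1 group. The assignment was checked on simulated data.

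Members, lists and named genes were chosen with earlier results of these data known. Named members were the 12 with the highest IDR signal, the 3 highest candidate-only, those nearer to the host, members of hosts with 3 or more, and the 3 longest without a summit; others were named after their values were seen. Ribosomal protein hosts were taken by annotated product, since 1 such host, Y37E3.8, has no rpl- or rps- name. Box C/D-type meant a C box with at most 1 letter differing in the first 15 bases and CTGA in the last 15, and box H/ACA-type ACA in the last 8. Alternatives were windows of 100, 150 and 500 bp, each replicate alone, the IDR list limited to the 50% of highest signal, the strongest summit, other placement rules, and other motif windows, letters and strands. The ce10 lists were not used. Python 3.11.15, numpy 2.4.6, scipy 1.17.1 and matplotlib 3.10.9 were used.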

Additional observations from a re-analysis of the deposited data

How the results depend on the processing

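Of 55 alternative values, 47 stayed within the interval of the value reported (for the median offset and signal, an interval of the median) and 8 moved out of it. With a window of 500 bp, 89.1% of assigned summits were nearer to the snoRNA than to the host 5′ end, and among members over 600 bp from host transcript starts, an alternative added after the data were seen, 100% were, which the window fixes, against 97.4% of 78 reported. The median signal of IDR peaks at members was 179 without replicate 1 and 192 without replicate 2, from single-replicate lists whose signal is not comparable in level with the pooled list. The share of members with TGTCGG among those without an IDR summit was 6.29% within 200 bp upstream, 0% on the strand of the snoRNA only and 4.2% for TGTCNG on that strand, added after the data were seen. With the letters reversed, 7.69% of members with an IDR summit matched. The share of hosted genes with an IDR summit was 21.4% without either replicate and 18.7% to 27.5% over all other alternatives. No paired analysis was possible because the replicates form only 1 group. Depth is unknown, so a member without a summit is a member without a listed region. Intervals treat genes as independent. The handling of reads from near-identical snoRNA copies is not stated. Peaks were not set against an untagged strain here.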
